A study of Mus musculus with 9 samples.

Results

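The mitochondrial ribosomal protein genes of E0771 cells, a mouse mammary tumour line, were followed on 9 arrays in 3 groups of 3. The groups were cells carrying a scrambled control hairpin (scram) and cells carrying shPC25 or shPC28, hairpins directed against pyruvate carboxylase, the mitochondrial enzyme that makes oxaloacetate from pyruvate and is encoded by Pcx. All 3 groups were transduced with a lentiviral hairpin, selected with puromycin, cultured in low glucose medium (5.6 mM, with 4 mM glutamine and 10% serum), and left untreated. Members were chosen by name: every probe set whose gene symbol begins with Mrpl or Mrps followed by a digit, with 1 probe set per gene. The rule found 76 genes among 22206 probe sets, 48 with an Mrpl symbol (proteins of the large subunit) and 28 with an Mrps symbol (mostly proteins of the small subunit). The rule reads symbols and, where a gene has several probe sets, takes the brightest, and it uses no difference between groups.

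The mitochondrial ribosome, or mitoribosome, sits in the matrix and translates the few messages encoded by mitochondrial DNA, all of them core subunits of the respiratory chain and ATP synthase. Its rRNAs come from mitochondrial DNA, whereas every protein of it comes from a nuclear gene and is imported, so that building it draws on both genomes. Many of its proteins have a counterpart in the bacterial ribosome, and the others arose in the mitochondrial lineage and cover the surface of the particle. A set of nuclear GTPases, methyltransferases and other factors assembles the subunits, and initiation, elongation and recycling factors resembling bacterial ones drive translation.

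Promoters of some genes described below are shown first, as the bases before the annotated start of the gene on its own strand. Sequences are from RefSeq on GRCm38.p6, and letters in capitals match a searched motif on either strand. Mrpl23 (chr7:142532782-142533031, plus strand), Mrpl9 (chr3:94443086-94443335, plus strand) and Mrpl32 (chr13:14613038-14613241, minus strand) belong to genes that rose with both hairpins. Mrpl41 (chr2:24975099-24975348, minus strand) belongs to the gene that fell with both, and Mrpl43 (chr19:45006443-45006557, minus strand) shares its promoter with Twnk. For Mrpl32 and Mrpl43, which have a neighbour starting on the other strand, only the bases between both starts are printed.
Mrpl23: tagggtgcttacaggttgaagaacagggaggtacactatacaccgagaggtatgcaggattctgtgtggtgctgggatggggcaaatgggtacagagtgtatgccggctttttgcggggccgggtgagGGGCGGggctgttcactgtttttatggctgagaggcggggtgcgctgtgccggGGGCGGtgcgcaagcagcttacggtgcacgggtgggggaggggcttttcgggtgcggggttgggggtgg
Mrpl9: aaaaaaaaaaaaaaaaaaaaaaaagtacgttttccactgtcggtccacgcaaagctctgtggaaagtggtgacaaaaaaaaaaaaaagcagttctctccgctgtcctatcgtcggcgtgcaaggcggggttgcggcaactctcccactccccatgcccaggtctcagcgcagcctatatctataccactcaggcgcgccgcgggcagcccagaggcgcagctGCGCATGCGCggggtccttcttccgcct
Mrpl32: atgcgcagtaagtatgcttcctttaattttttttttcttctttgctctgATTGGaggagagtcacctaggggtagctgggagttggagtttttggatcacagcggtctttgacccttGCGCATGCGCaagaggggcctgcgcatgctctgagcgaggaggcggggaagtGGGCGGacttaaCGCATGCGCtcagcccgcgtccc
Mrpl41: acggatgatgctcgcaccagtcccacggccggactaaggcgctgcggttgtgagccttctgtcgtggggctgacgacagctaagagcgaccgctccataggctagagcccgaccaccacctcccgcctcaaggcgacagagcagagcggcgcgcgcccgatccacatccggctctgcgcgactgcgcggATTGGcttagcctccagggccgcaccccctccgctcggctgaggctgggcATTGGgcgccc
Mrpl43: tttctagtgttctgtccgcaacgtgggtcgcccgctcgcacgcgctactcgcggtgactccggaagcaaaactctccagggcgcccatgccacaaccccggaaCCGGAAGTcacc
The capitals in Mrpl23 are GC boxes, those in Mrpl9 an NRF1 motif, and those in Mrpl41 CCAAT boxes read on the other strand. Mrpl32 holds a CCAAT box, a GC box and NRF1 motifs, and the short interval of Mrpl43 holds an ETS motif.

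Values are on a log2 scale, so that a difference of 1 is a doubling, and they are given as mean ± SD (n = 3). A gene was called where limma, fitted to all 22206 probe sets, gave an adjusted p under 0.05. The targeted gene followed the labels: Pcx averaged 9.07 ± 0.20 in scram, 5.53 ± 0.11 with shPC25 and 6.81 ± 0.22 with shPC28, so that its signal was 11.6-fold lower with shPC25 and 4.80-fold lower with shPC28. Array medians over all probe sets lay between 4.88 and 5.04. Of the epithelial markers, Krt8 (13.74 in scram) and Epcam (7.49) exceeded the median over all probe set means, 4.95, and Cdh1 (4.89), Krt18 (3.75) and Krt19 (2.52) below it. Of the mesenchymal markers, Vim (17.15) and Zeb1 (13.77) lay above it, and Cdh2 (3.21) and Fn1 (2.31) below it. The 3 macrophage and 3 endothelial markers on the array lay between 3.14 and 4.81 in scram, and of the T cell markers Cd3e (2.52) and Cd8a (3.02) lay below the median and Cd4 (6.80) above it. Some of these markers moved with the groups. Krt8 was higher with both hairpins (0.38 and 0.72, adjusted p = 0.0147 and 0.000144). Zeb1 was lower with both (−0.39 and −0.99, adjusted p = 0.0257 and 5.2e-05). With shPC28, Epcam (−0.74) was lower and Cdh1 (0.61) higher. Fn1 and Cdh5, whose scram means lay below the median, were called as well. Unlike Zeb1, the mesenchymal marker Fn1 was higher with shPC28 (0.37, adjusted p = 0.0165). The endothelial marker Cdh5 was lower with both hairpins (adjusted p = 0.00501 and 0.000173). Whether this bears on the ribosomal protein genes was not tested. Whether the 3 arrays of a group stem from separate cultures is not stated in the labels. The p-values therefore reflect the spread between these arrays alone, part or all of which may be technical. These are bulk RNA measurements, in which a change in all cells and a change in the share of cells that express a gene cannot be told apart.

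Many mitochondrial ribosomal protein messages were higher in cells with a hairpin against Pcx, 30 of 76 with shPC25 and 60 of 76 with shPC28. With shPC25, 3 genes fell, with a median log2 change of 0.29 over all 76. Over all probe sets, 9.19% rose and 11.3% fell, with a median of 0.04. With shPC28, 2 fell, with a median of 0.78, against 21.2% of all probe sets that rose, 20.5% that fell and a median of 0.10. All 76 belonged to the 11103 probe sets with a mean above the median, and among those 15.6% rose with shPC25 and 30.9% with shPC28, with medians of −0.00 and −0.03.

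The 3 arrays of each group gave nearly the same picture. Relative to the scram mean of each gene, the median over the 76 genes was 0.27, 0.30 and 0.34 on the shPC25 arrays and 0.78, 0.73 and 0.77 on the shPC28 arrays, while the scram arrays themselves lay at −0.03, 0.02 and 0.00. The shPC28 arrays were the highest and the scram arrays the lowest, with no overlap. Gene by gene, the 3 shPC28 values all lay above the 3 scram values for 65 genes and below them for 3, where 27.5% and 23.6% of all probe sets were separated in this way. With shPC25, 46 genes were separated upwards and 4 downwards, beside 20.2% and 18.8% of all probe sets.

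Both comparisons rest on the same scram arrays, so that their calls are not independent of each other. No gene was called in opposite directions. Mrpl41 was called lower with shPC25 and with shPC28, Mrpl50 with shPC28 and Mrpl18 and Mrpl51 with shPC25, and 12 genes were called with neither. The group means rose from scram over shPC25 to shPC28 for 59 of the 76 genes (77.6%), as they did for 31.9% of all probe sets, and fell in that order for 4 (5.26%, beside 22.9% of all). The hairpin with the lower Pcx signal, shPC25, was thus the one with the smaller change in these genes.

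**Figure D1:**
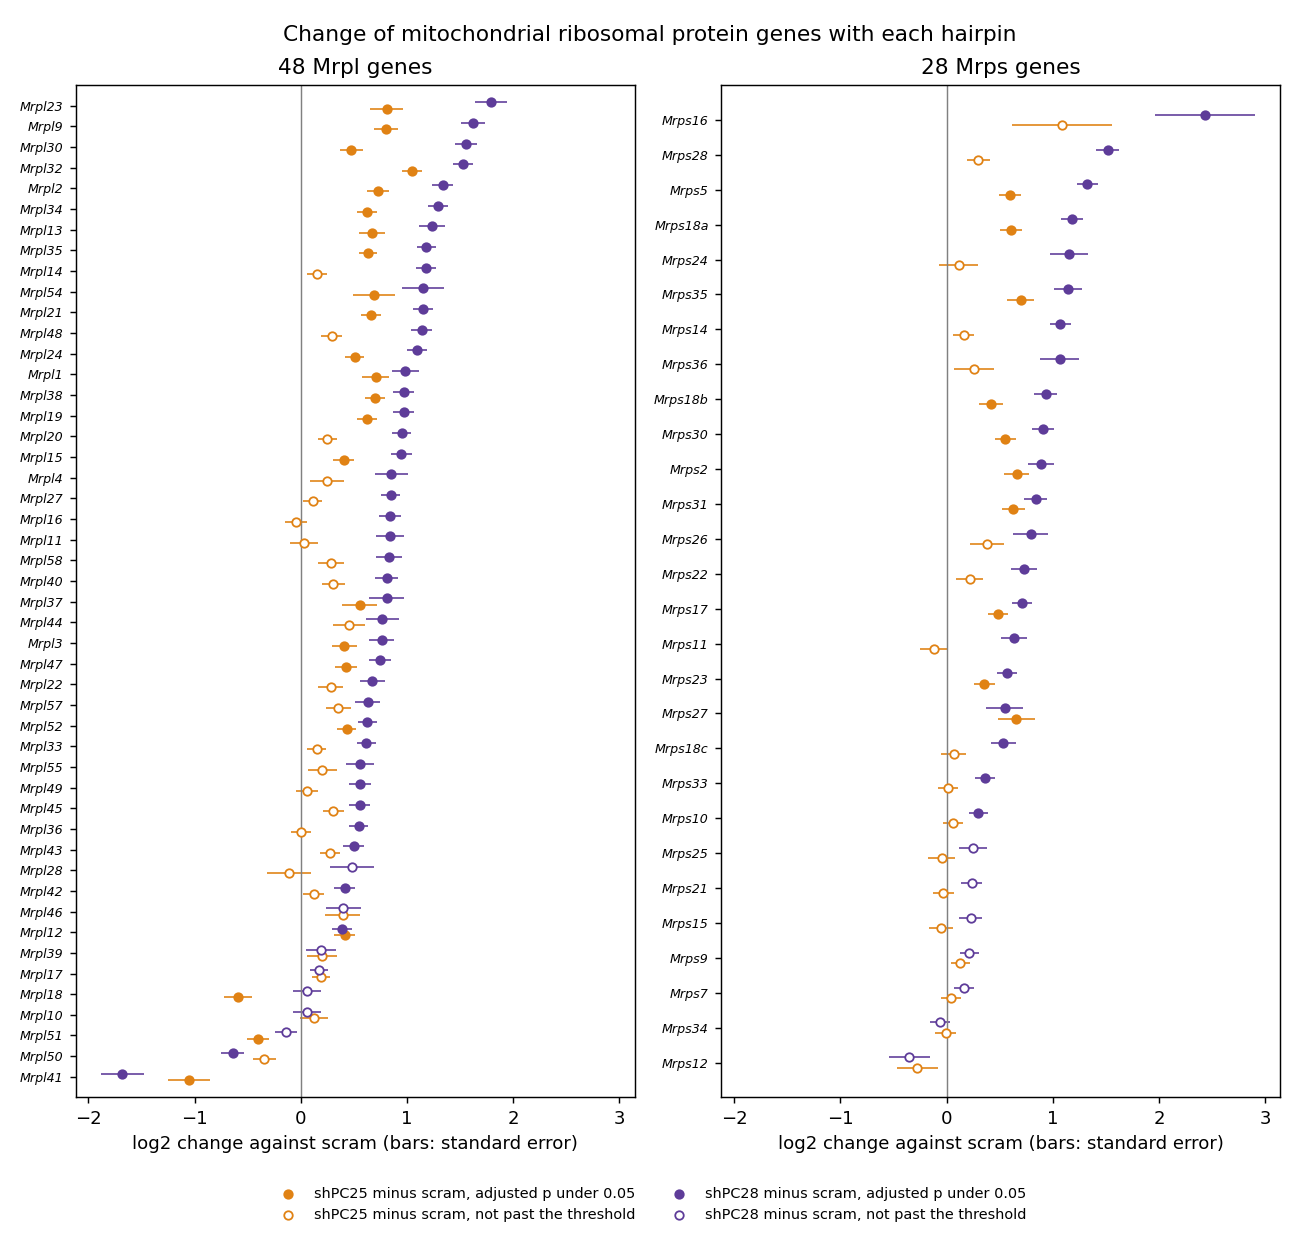
Log2 change against scram (horizontal axis, bars are standard errors from limma) of each of the 48 Mrpl and 28 Mrps genes with shPC25 (orange) and shPC28 (purple), filled where the adjusted p was under 0.05. Most genes lie to the right of 0 with the shPC28 point farther out, and Mrpl41 lies farthest to the left at −1.05 and −1.68.

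A direct comparison of the hairpins gave 39 genes higher with shPC28 than with shPC25 and 1 lower, with a median difference of 0.43. Across the array, 11.8% of probe sets were higher and 14.5% lower, with a median of 0.04. The largest called differences were those of Mrps28, Mrpl30, Mrps24 and Mrpl14. Mrps28, a small subunit protein, read 9.07, 8.98 and 9.26 in scram, 9.47, 9.45 and 9.28 with shPC25 and 10.69, 10.55 and 10.62 with shPC28. Its shPC25 values lay just above the scram values and its shPC28 values far above both, which gave a change of 0.30 with shPC25 (adjusted p = 0.0888) and a difference of 1.22 ± 0.11 (SE) between the hairpins (adjusted p = 7.96e-05). Mrpl30 differed by 1.08, Mrps24 by 1.04 and Mrpl14 by 1.03. Mrps24 and Mrpl14 changed by only 0.11 (adjusted p = 0.718) and 0.15 (adjusted p = 0.307) with shPC25, neither past the threshold. The smallest called differences in the same direction were 0.34 for Mrpl19 and 0.35 for Mrps33 and Mrps30. Each of these 3 calls was lost without shPC25 replicate 1, shPC28 replicate 1 or shPC28 replicate 3, and some also without shPC25 replicate 2 or 3.

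Large subunit genes showed somewhat higher counts than small subunit genes, a difference that was not tested. Of the 48 Mrpl genes, 20 were higher and 3 lower in the shPC25 cells (median 0.31), beside 39 higher and 2 lower in the shPC28 cells (median 0.81). Of the 28 Mrps genes, 10 rose with shPC25 (median 0.24) and 21 with shPC28 (median 0.72), and none fell with either. Over all probe sets, 9.19% rose and 11.3% fell with shPC25, and 21.2% and 20.5% with shPC28. Symbols do not follow the structure everywhere, since the products of Mrps18a and Mrps30 sit in the large subunit and that of Mrps36 belongs to no subunit. By place in the mammalian structure, 41 of 50 large subunit genes rose with shPC28 (median 0.82) and 18 of 25 small subunit genes (median 0.64). With shPC25 these counts were 22 of 50 (median 0.33) and 8 of 25 (median 0.16). Every gene called lower with either hairpin, Mrpl18, Mrpl41, Mrpl50 and Mrpl51, encodes a large subunit protein.

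Proteins with a bacterial counterpart and proteins found only in mitochondria, as divided by the uniform naming of ribosomal proteins, are given side by side, and differences between them were not tested. With shPC25, 19 of 45 genes of the first kind and 11 of 30 of the second rose (42.2% and 36.7%). Both shares were near the 39.5% of all 76 genes, beside 9.19% of all probe sets. With shPC28, 36 of 45 (median 0.85) and 23 of 30 (median 0.63) rose, beside 78.9% of the 76 genes and 21.2% of all probe sets. Between the hairpins, 28 of 45 (median 0.54) and 10 of 30 (median 0.28) were higher with shPC28. The share was 51.3% over the 76 genes and 11.8% over all probe sets. Mrpl41, Mrpl50 and Mrpl51 are mitochondrion-specific, and Mrpl18 has a bacterial counterpart. Among the large subunit proteins with a bacterial counterpart, 26 of 30 rose with shPC28 and none fell, with a median of 0.90.

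The genes that rose most with shPC28 were Mrps16, Mrpl23, Mrpl9, Mrpl30, Mrpl32 and Mrps28, all of which have a bacterial counterpart. Mrpl23, which encodes a protein at the exit of the tunnel through which new chains leave the ribosome and whose promoter is shown above, read 10.68, 10.44 and 10.38 in scram, 11.33, 11.02 and 11.57 with shPC25 and 12.19, 12.25 and 12.43 with shPC28. The 3 groups did not overlap. It rose 1.75-fold with shPC25 (log2 0.81 ± 0.15, SE, adjusted p = 0.00678) and 3.46-fold with shPC28 (log2 1.79 ± 0.15, adjusted p = 2.03e-05). Mrpl9 stood at 10.03 ± 0.10 in scram, 10.83 ± 0.14 with shPC25 and 11.65 ± 0.11 with shPC28, again without overlap. Its changes were 0.80 (adjusted p = 0.00162) and 1.62 (adjusted p = 6.01e-06).

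Mrpl32 had the largest called rise with shPC25. It encodes a large subunit protein whose precursor is matured by the m-AAA protease of the inner membrane before it enters the ribosome. Its values were 10.79, 10.89 and 10.88 in scram, 11.93, 11.94 and 11.83 with shPC25 and 12.44, 12.24 and 12.46 with shPC28. The shPC25 arrays already lay more than 1 log2 unit above the lowest scram array, and the change was 2.07-fold with shPC25 (log2 1.05 ± 0.10, adjusted p = 0.000243) and 2.88-fold with shPC28 (log2 1.53, adjusted p = 3.75e-06). After Mrpl23 and Mrpl9, the next called rises with shPC25 were those of Mrpl2, Mrpl1 and Mrps35 at 0.73, 0.71 and 0.70, with Mrpl38 at 0.70 as well. Mrpl2 encodes a protein of the core near the peptidyl transferase centre and Mrpl1 the protein of the mobile stalk beside the exit site. With shPC28 these genes stood at 1.34, 0.98 and 1.14, all called.

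Of the 76 genes, Mrps16 had the largest change with shPC28 and also the widest spread. The gene, for a protein of the small subunit body, read 7.07, 6.86 and 6.89 in scram, 6.85, 8.66 and 8.57 with shPC25 and 9.28, 10.03 and 8.81 with shPC28. All shPC28 arrays lay above all others, whereas 1 shPC25 array lay at the scram level and the remaining shPC25 arrays well above it. The change with shPC28 was 5.40-fold (log2 2.43 ± 0.47, SE, adjusted p = 0.00265), above the upper fence of 1.99 for the 76 genes, which is set at 1.5 times the interquartile range beyond the quartiles. With shPC25 the change of 1.09 did not pass (adjusted p = 0.147), and without shPC25 replicate 1 the adjusted p was 0.0106.

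**Figure D2:**
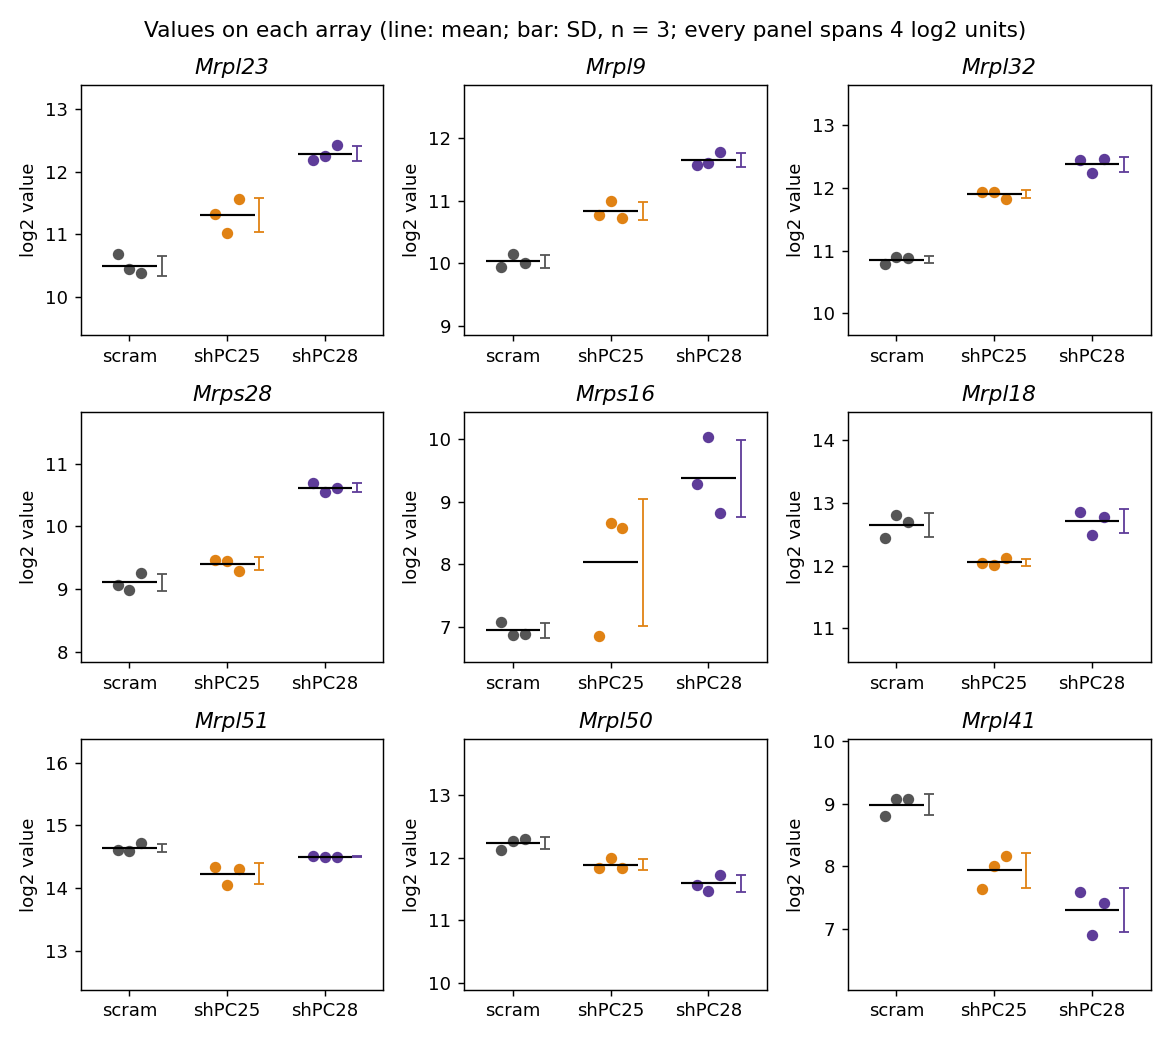
Log2 value on each array (vertical axis, every panel spans 4 log2 units) of 9 genes in scram, shPC25 and shPC28, with the mean as a line and the SD (n = 3) as a bar. Mrpl23, Mrpl9 and Mrpl32 climb through the 3 groups, 1 shPC25 array of Mrps16 sits at the scram level, and Mrpl41 descends from 8.99 to 7.31.

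Mrpl41 ran against most of the large subunit. Its product is a mitochondrion-specific protein of the large subunit that has also been studied in human cells for a role in cell death. The values were 8.80, 9.08 and 9.08 in scram, 7.63, 8.01 and 8.16 with shPC25 and 7.59, 6.91 and 7.42 with shPC28. Both hairpin groups lay wholly below scram, and all shPC28 arrays lay below all shPC25 arrays. Mrpl41 fell 2.08-fold with shPC25 (log2 −1.05 ± 0.20, SE, adjusted p = 0.0067) and 3.20-fold with shPC28 (log2 −1.68 ± 0.20, adjusted p = 0.000142), and both changes lay below the lower fences of −0.60 and −0.46. The difference between the hairpins, −0.63, was called by a narrow margin (adjusted p = 0.0481) and was lost under 11 of 16 alternatives.

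Mrpl50, for another mitochondrion-specific protein of the large subunit, was the other gene called lower with shPC28. It read 12.12, 12.27 and 12.30 in scram, 11.83, 11.99 and 11.84 with shPC25 and 11.56, 11.47 and 11.73 with shPC28, without overlap between the groups. The change was −0.64 ± 0.11 with shPC28 (adjusted p = 0.00107) and −0.34 with shPC25, which missed the threshold (adjusted p = 0.0522). Under some alternatives the shPC25 change was called. Among them were centring on olfactory receptor probe sets (adjusted p = 0.0261) and leaving out the lowest 50% of probe sets (adjusted p = 0.0153).

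Mrpl18 and Mrpl51 were called lower with shPC25 and not with shPC28. Mrpl18, whose product has been linked in human cells to the import of a nuclear-encoded rRNA, read 12.44, 12.81 and 12.70 in scram, 12.04, 12.01 and 12.12 with shPC25 and 12.86, 12.49 and 12.78 with shPC28. The shPC25 arrays lay below all others, with a change of −0.59 ± 0.13 (adjusted p = 0.0142), and the scram and shPC28 arrays overlapped (0.06, adjusted p = 0.752). The hairpins differed by 0.65 (adjusted p = 0.00649). Without scram replicate 2 or scram replicate 3 the adjusted p with shPC25 rose to 0.0559 and 0.0524, and the number of genes called lower with shPC25 fell from 3 to 1. Mrpl51 changed by −0.41 with shPC25 (adjusted p = 0.0249) and by −0.14 with shPC28 (adjusted p = 0.333). The difference of 0.27 between the hairpins was not past the threshold (adjusted p = 0.0929). Its shPC25 call was lost under 6 of 16 alternatives, among them leaving out any scram array or shPC25 replicate 2. The shPC28 arrays of Mrpl51 (14.51, 14.50 and 14.49) all lay below its scram arrays (14.61, 14.59 and 14.71). With shPC28 it was called lower only after centring on olfactory receptor probe sets (adjusted p = 0.0381).

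Among the genes of the flexible stalk that recruits translation factors, the responses differed. Mrpl11, at the base of the stalk, rose by 0.84 with shPC28 (adjusted p = 0.000795) and changed by 0.03 with shPC25. Mrpl12, the stalk protein itself, changed by similar amounts with both, 0.41 (adjusted p = 0.0173) and 0.39 (adjusted p = 0.011). Its shPC25 call was lost without scram replicate 2 or 3 or shPC25 replicate 2 or 3, and its shPC28 call was lost when arrays were centred on olfactory receptor probe sets (adjusted p = 0.18). Mrpl10, which anchors the stalk, read 0.13 and 0.06, neither past the threshold.

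At the tunnel exit, 5 of 6 genes rose with shPC28 and 2 with shPC25 (83.3% and 33.3%). The shares were 78.9% and 39.5% over the 76 genes and 21.2% and 9.19% over all probe sets. These counts are not read as a result about the tunnel exit. Mrpl24 rose by 0.51 (adjusted p = 0.00543) and 1.09 (adjusted p = 1.82e-05) beside Mrpl23. Mrpl22, Mrpl44 and Mrpl45 were called with shPC28 alone, at 0.67, 0.77 and 0.56. Mrpl45 helps to hold the particle at the inner membrane, where new chains are inserted. Mrpl39 changed by 0.20 and 0.19, neither called.

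The 3 paralogues of the Mrps18 family, whose products sit at different places of the ribosome, all rose with shPC28. So did 78.9% of the 76 genes and 21.2% of all probe sets. Mrps18a rose by 1.18, Mrps18b by 0.93 and Mrps18c by 0.53 (adjusted p = 2.24e-05, 0.000136 and 0.00541). With shPC25, Mrps18a (0.60) and Mrps18b (0.42) were called and Mrps18c (0.07) was not. The Mrps18b call with shPC25 was lost without scram replicate 2 or shPC25 replicate 2 or 3. Near the decoding site, Mrps12 read −0.28 and −0.35, neither past the threshold (adjusted p = 0.367 and 0.181), whereas Mrps14 of the small subunit head rose by 1.07 with shPC28 (adjusted p = 3.15e-05). Mrpl58, a built-in peptidyl-tRNA hydrolase related to bacterial release factors, rose by 0.83 with shPC28 (adjusted p = 0.000503).

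Mrps36 carries a ribosomal name, but its product is a subunit of the 2-oxoglutarate dehydrogenase complex of the TCA cycle. It read 10.14, 10.68 and 10.64 in scram, 10.97, 10.44 and 10.82 with shPC25 and 11.68, 11.59 and 11.38 with shPC28. The shPC28 arrays lay above all others, with a change of 1.06 (adjusted p = 0.00147), while scram and shPC25 overlapped (0.26, adjusted p = 0.39).

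At the lower end of the called rises with shPC28 were Mrps10 (0.30), Mrps33 (0.36), Mrpl12 (0.39) and Mrpl42 (0.41), and with shPC25 Mrps23 (0.36), Mrpl15 (0.40) and Mrpl3 (0.41). The Mrps10 call was lost without any scram array and without shPC28 replicate 1 or 3. The Mrps23 call was lost without any scram or shPC25 array, the Mrpl15 call without scram replicate 2 or 3 or shPC25 replicate 3, and the Mrpl3 call without scram replicate 1 or 3, shPC25 replicate 2 or 3 or shPC28 replicate 3. Genes called with neither hairpin were Mrpl10, Mrpl17, Mrpl28, Mrpl39, Mrpl46, Mrps7, Mrps9, Mrps12, Mrps15, Mrps21, Mrps25 and Mrps34. Their changes with shPC28 ran from −0.35 for Mrps12 to 0.48 for Mrpl28. Some of them were called under alternatives, such as Mrpl46 and Mrpl28 with shPC28 after quantile normalization (adjusted p = 0.00198 and 0.0101).

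Some subunits of the mitoribosome have genes with other names. Of 5 listed, 4 were on the array under their symbol, and all 4 rose with shPC28 (3 to 4 over the alternatives) while 3 rose with shPC25 (0 to 4). Over all probe sets, 21.2% rose with shPC28 and 9.19% with shPC25, and over those above the median 30.9% and 15.6%. With so few genes the counts are not read as a result about this list. Gadd45gip1, a large subunit protein, rose by 0.64 and 1.45 (adjusted p = 0.0144 and 4.74e-05), the shPC25 call being lost without scram replicate 2 or shPC25 replicate 2. Dap3, the GTP-binding protein of the small subunit, rose by 0.38 and 0.81, and its shPC25 call was lost without any scram array or shPC25 replicate 1 or 2. Chchd1 rose by 1.01 with shPC28 and read 0.39 with shPC25 (adjusted p = 0.0806). Ptcd3 rose by 0.32 and 0.40, and its shPC25 call was lost without any one array other than shPC25 replicate 2.

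Genes that assemble the mitoribosome or modify its rRNA were called in both directions, though mostly higher with shPC25. Of 26 on the list, the shPC25 cells had 10 higher and 1 lower (38.5% and 3.85%, beside 9.19% and 11.3% of all probe sets, median 0.23). The shPC28 cells had 11 higher and 4 lower (42.3% and 15.4%, beside 21.2% and 20.5% of all probe sets, median 0.04). Mtg2, a GTPase of large subunit assembly, rose by 1.64 with shPC28, Tfb1m, which methylates the small subunit rRNA, by 1.55, Mpv17l2 by 1.34 and Rpusd4, a pseudouridine synthase, by 1.16. In the other direction, Mrm3 and Mrm2, which both methylate the large subunit rRNA, fell by 2.18 and 1.39 with shPC28 (adjusted p = 1.74e-05 and 5.42e-06). Mrm3 read 9.31, 9.87 and 9.61 in scram, 9.01, 8.99 and 9.35 with shPC25 and 7.40, 7.67 and 7.18 with shPC28, so that its shPC28 arrays lay far below all others. Mrm2 fell with shPC25 as well, by 0.70 (adjusted p = 0.00133), but its signal was weak, with means of 5.58 in scram, 4.88 with shPC25 and 4.19 with shPC28. The hairpin groups lay below the median of all probe set means, and the files do not show whether such signals exceed background, so the size of its change is uncertain. Nsun4, a methyltransferase of the small subunit rRNA, fell by 1.23 and Gtpbp10, another large subunit GTPase, by 1.12 with shPC28, the Nsun4 call being lost after quantile normalization (adjusted p = 0.0507).

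Translation factors were also called in both directions. Of 15 on the array, 4 were higher and 1 lower in shPC25 cells (26.7% and 6.67%, beside 9.19% and 11.3% of all probe sets). In shPC28 cells 5 were higher and 2 lower (33.3% and 13.3%, beside 21.2% and 20.5% of all probe sets, median 0.20). With so few genes these shares are not read as a result about the factors. The initiation factor gene Mtif3 rose by 0.80 and 1.40 (adjusted p = 0.00149 and 1.27e-05) and the elongation factor gene Tufm by 0.70 and 0.94. Mtfmt, whose product formylates the initiator tRNA, fell by 0.67 and 0.87 (adjusted p = 0.00515 and 0.000346). Lrpprc, which stabilises mitochondrial messages, fell by 0.31 with shPC28 (adjusted p = 0.0198), a call lost without scram replicate 2 or 3 or shPC28 replicate 3 and after centring on array medians.

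With shPC28, the genes that transcribe mitochondrial DNA, and hence the rRNA of the mitoribosome, moved the other way from its proteins. All 5 on the list were lower with shPC28 than in scram and lower than with shPC25, beside 20.5% and 14.5% of all probe sets. Only 1, Tfb2m, was lower with shPC25 than in scram, beside 11.3% of all probe sets and 19.7% of those above the median. With shPC25, Tefm (0.21), Mterf1a (−0.08) and Tfam (−0.02) did not pass the threshold. Tfb2m, the initiation factor that opens the promoter for the polymerase, read 13.01, 13.08 and 13.05 in scram, 11.60, 11.28 and 11.55 with shPC25 and 10.00, 10.86 and 10.55 with shPC28. Its groups did not overlap, with a 2.97-fold fall with shPC25 (log2 −1.57 ± 0.20, SE, adjusted p = 0.000956) and a 5.97-fold fall with shPC28 (log2 −2.58 ± 0.20, adjusted p = 1.1e-05). Polrmt, the mitochondrial RNA polymerase, read 9.05, 9.08 and 9.25 in scram, 8.17, 8.92 and 8.94 with shPC25 and 7.09, 7.34 and 7.10 with shPC28. It fell 3.86-fold with shPC28 (log2 −1.95, adjusted p = 5.73e-05) and read −0.45 with shPC25 (adjusted p = 0.156). Tefm, the elongation factor, fell by 0.82 (adjusted p = 0.00377), Mterf1a by 0.61 and Tfam, which packages the DNA, by 0.48 with shPC28, and the last 2 calls were lost after quantile normalization (adjusted p = 0.216 for Mterf1a and 0.0544 for Tfam). The difference of Tfam between the hairpins, −0.46, was lost without shPC25 replicate 2 or 3 or shPC28 replicate 1 or 2. The mitochondrial rRNAs themselves were not analysed here.

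**Figure D3:**
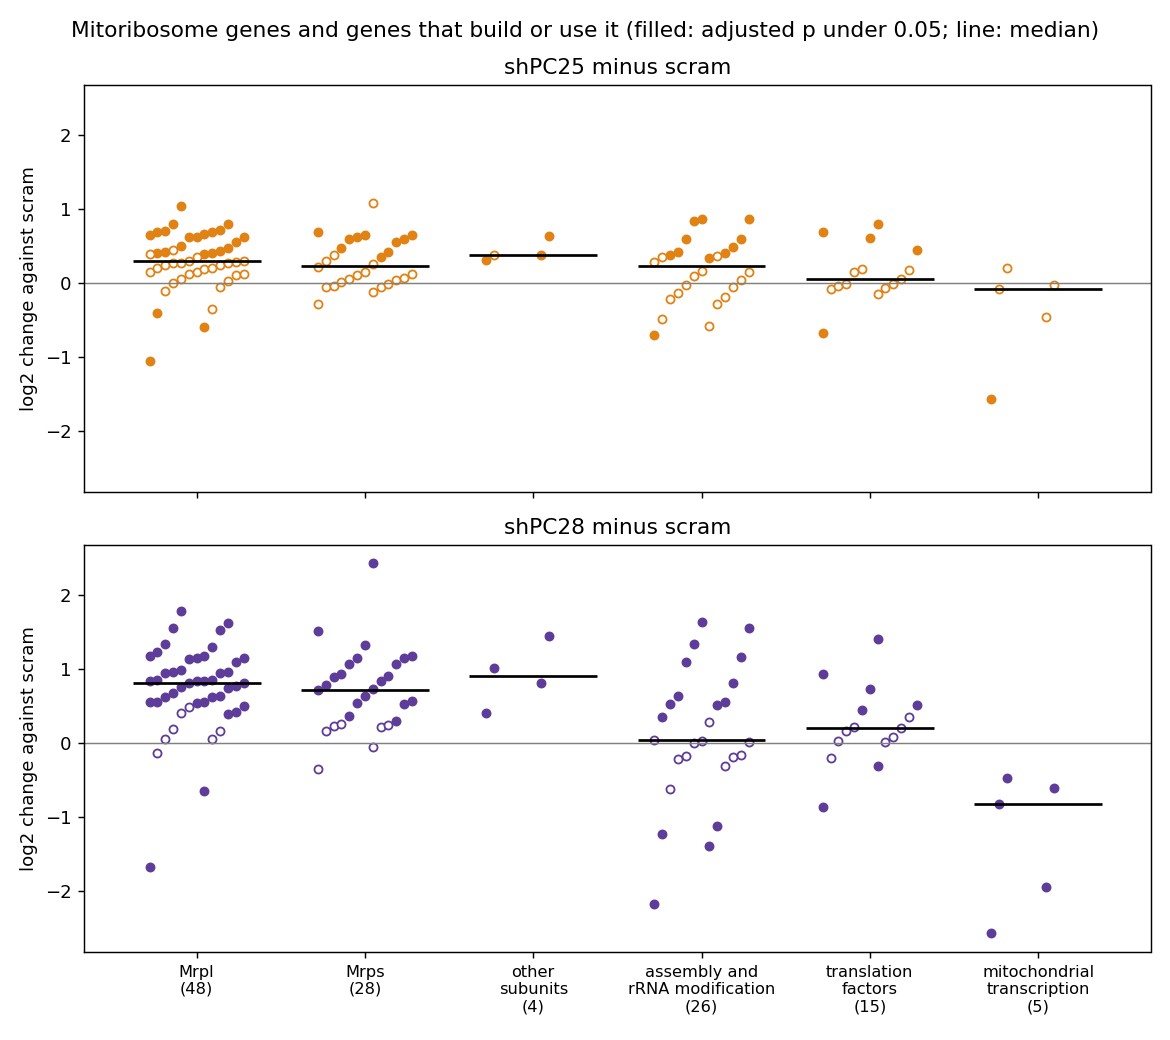
Log2 change against scram (vertical axis) of each gene in 6 groups of genes for shPC25 (upper panel) and shPC28 (lower panel), filled where the adjusted p was under 0.05, with the median as a line. The Mrpl and Mrps genes centre on 0.81 and 0.72 with shPC28, and in the same panel the assembly genes spread from −2.18 to 1.64 and all 5 transcription genes lie below 0.

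A pair of other gene sets gave a scale for these counts. Across the array, 9.19% of probe sets were higher with shPC25 and 21.2% with shPC28. Of 60 cytosolic ribosomal protein genes, 20 were higher with shPC25 (median 0.25) and 52 with shPC28 (median 0.47), and none was lower. Of 37 nuclear genes for subunits of respiratory complex I, which the mitoribosome supplies with its mitochondrially encoded partners, 15 rose with shPC25 (median 0.31) and 33 with shPC28 (median 0.78), and none fell with either. The 76 mitochondrial ribosomal protein genes, at medians of 0.29 and 0.78, lay beside complex I, and a difference from either set was not tested. Between the hairpins, 21 of 60 cytosolic ribosomal protein genes (median 0.24), 26 of 37 complex I genes (median 0.46) and 39 of 76 mitochondrial ribosomal protein genes (median 0.43) were higher with shPC28.

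Of the 76 genes, 67 had a promoter in the RefSeq set, taken as 250 bases before and 50 after the start. Motifs were searched as plain letters on both strands, a promoter was counted once however many matches it held, and a base could belong to more than 1 motif. The ETS motif CCGGAAGT was present in 12 promoters (17.9%), beside 5.88% of the 15691 genes on the array that had a promoter and 4.31% of all genes in the set. The YY1 motif AAGATGGC was present in 12 (17.9%, beside 3.64% and 3.19%) and the NRF1 motif GCGCANGCG, which reads nearly alike on both strands, in 16 (23.9%, beside 10.2% and 7.03%). The E-box CACGTG (7.46%, beside 9.26% of the genes on the array and 8.09% of all), the GC box GGGCGG (49.3%, beside 51.2% and 38.2%) and CCAAT (38.8%, beside 42.2% and 41.1%) were about as common as elsewhere on the array. The median ratio of observed to expected CpG was 0.818, beside 0.638 for genes on the array. Among the 52 members with a promoter that rose with shPC28, 19.2% held the ETS motif, 21.2% NRF1 and 19.2% YY1, and among the 15 that did not, 13.3%, 33.3% and 13.3%. CCAAT was present in 32.7% and 60.0% of these promoters, the E-box in 9.62% and 0%, and the GC box in 48.1% and 53.3%, and no difference was tested. These are matches of letters, and no binding was measured.

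Many of these genes start head to head with another gene. For 23 of the 67 (34.3%), a gene on the other strand began within 500 bases upstream, as was so for 12.3% of the genes on the array with a promoter. In 19 pairs the neighbour was no member of the group and was on the array. Among these pairs, 15 ribosomal protein genes rose and 1 fell with shPC28 (median 0.74), and 6 neighbours rose and 7 fell (median −0.07). Of all probe sets, 21.2% rose and 20.5% fell with shPC28, and of those above the median 30.9% and 36.5% (median −0.03). With shPC25, 8 of the 19 ribosomal protein genes rose and 1 fell, and 2 neighbours rose and 2 fell, beside 9.19% and 11.3% of all probe sets. The counts of neighbours were near these shares and are not read as a result about the neighbours. Over 15 alternatives the neighbours higher with shPC28 numbered 3 to 7 and those lower 4 to 8.

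The widest divergence within a pair was that of Mrpl43 and Twnk, the gene of the mitochondrial DNA helicase, whose starts lie 116 bases apart and whose shared interval is printed above. Mrpl43 read 9.30, 9.18 and 9.13 in scram, 9.42, 9.47 and 9.54 with shPC25 and 9.62, 9.68 and 9.80 with shPC28, a rise of 0.50 with shPC28 (adjusted p = 0.00256, lost after centring on olfactory receptor probe sets at 0.0517). Twnk fell by 2.66 with shPC28 (adjusted p = 5.44e-06) and read −0.46 with shPC25 (adjusted p = 0.112). Other pairs of which the ribosomal gene rose and the neighbour fell with shPC28 were Mrpl27 and the endonuclease subunit gene Eme1 (0.85 and −1.18), Mrps5 and Zfp661 (1.32 and −0.92), Mrpl40 and the histone chaperone gene Hira (0.81 and −0.76), Mrpl30 and Mitd1 (1.56 and −0.36), and Mrpl57 and Ska3 (0.63 and −0.33). Mrpl32, the gene with the largest called rise with shPC25, rose by 1.53 with shPC28 while its neighbour Psma2, a proteasome subunit gene, read 0.19 (adjusted p = 0.13).

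Some pairs moved together. Mrpl47 rose by 0.74 and its neighbour Ndufb5, a complex I gene, by 1.35 with shPC28, and Mrps27 and Ptcd2 rose by 0.55 and 0.62. Both genes were also called higher with shPC28 in the pairs Mrpl14 and Tmem63b (1.18 and 0.40) and Mrpl2 and Klc4 (1.34 and 0.47). The same held for Mrpl49 and Fau (0.56 and 0.36). The Mrps27 call was lost without scram replicate 1 or 2 or shPC28 replicate 2 or 3. Mrpl50, the member that fell with shPC28, had a neighbour that fell too, Zfp189 at −1.54 (adjusted p = 0.000181). Mrps12 was not called with either hairpin, and its neighbour Sars2, the mitochondrial seryl-tRNA synthetase gene, rose by 0.85 with shPC28 (adjusted p = 0.00105).

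**Figure D4:**
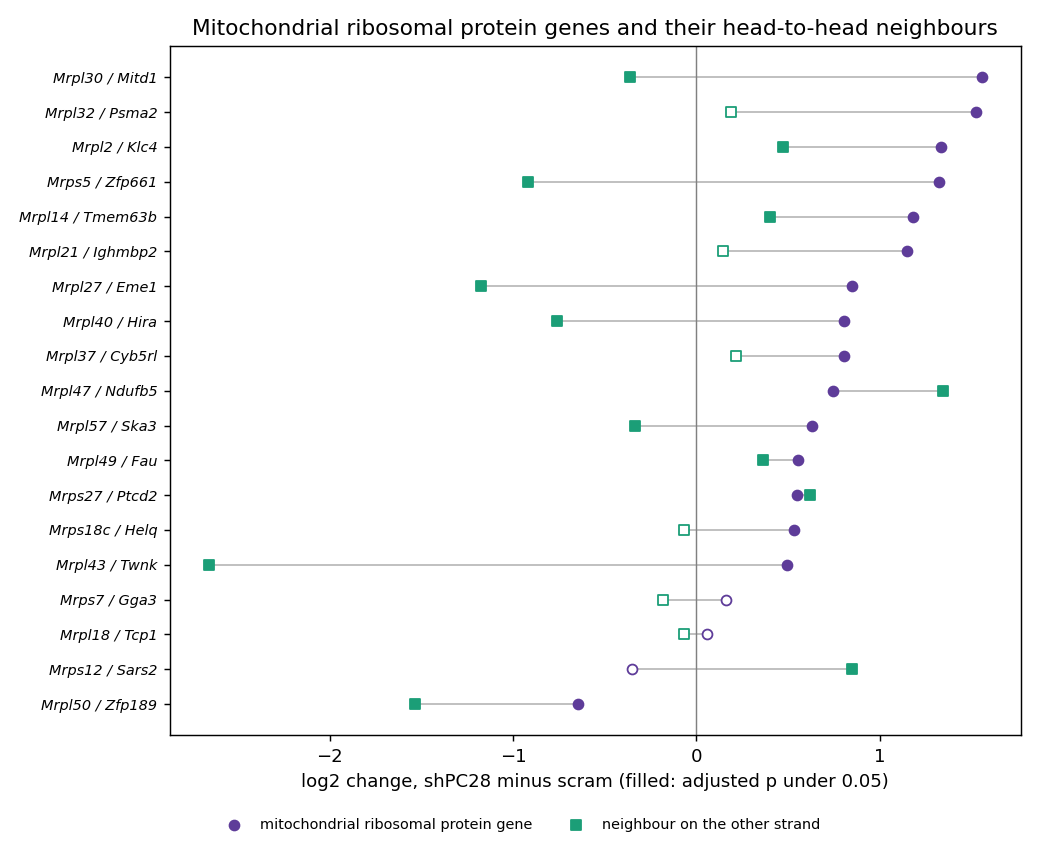
Log2 change with shPC28 against scram (horizontal axis) of 19 mitochondrial ribosomal protein genes (purple circles) and of the gene that starts within 500 bases on the other strand (green squares), filled where the adjusted p was under 0.05. The ribosomal protein genes lie mostly right of 0, their neighbours lie on both sides, and Twnk lies farthest left at −2.66.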

How the data were processed

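Total RNA was labelled by the authors with the WT PLUS kit and hybridised to Clariom S mouse arrays, which were processed with Transcriptome Analysis Console 4.0.1. The deposited log2 values, 1 per probe set and array, were used as given. The base of the logarithm was read from their range (1.51 to 18.64), while normalization and genome build were not stated in what was used here. Arrays have no read depth, and precision is set by 3 arrays per group. Of 22206 probe sets, 19572 had 1 gene symbol in the platform annotation, 2634 had none and 0 had several.

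All 9 arrays were fitted with group means in limma 3.58.1 (R 4.3.3), two-sided, with Benjamini-Hochberg adjustment over all probe sets and a threshold of 0.05. Simulated data with known changes served to test the fit. Described genes were those with the 6 largest and 6 smallest called changes per hairpin, the 4 largest and 4 smallest called differences between hairpins, all members called lower or beyond 1.5 interquartile ranges, the role groups, and from the lists all genes called lower and the 6 highest with shPC28, with further genes named as examples. The members and lists were chosen with earlier results of these data known, and head-to-head neighbours after seeing the data. A total of 16 alternatives were run: quantile normalization, other centrings, a filter on dim probe sets, a moderated trend, fewer arrays, a replicate block and leaving out each array. Each member had 1 probe set.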

Additional observations from a re-analysis of the deposited data

How the results depend on the processing

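No called member changed direction under any of the 16 alternatives, and of the 33, 62 and 40 calls (shPC25, shPC28, shPC28 against shPC25) 21, 55 and 31 passed under all of them. Scaling moved the members' medians: they were 0.37, 0.90 and 0.50 after quantile normalization, 0.39 and 0.88 against scram after centring on array medians, and 0.22, 0.58 and 0.30 after centring on the 1091 olfactory receptor probe sets. Centring on array medians raised the median of all probe sets by 0.10 against scram, and olfactory centring changed it by −0.07, −0.20 and −0.13. Relative to the median of all probe sets, the members' medians were 0.25, 0.68 and 0.39 as deposited, which centring cannot alter, and 0.34, 0.84 and 0.47 after quantile normalization. Of all probe sets called, 44.9%, 50.8% and 44.8% were higher as deposited, 61.5%, 60.7% and 44.8% after array-median centring and 32.0%, 31.5% and 26.5% after olfactory centring. Between the hairpins, the number of members called lower was 1 as reported, 0 after quantile normalization, array-median centring, the fit to only the arrays compared and the replicate block, and 2 after olfactory centring, without the lowest 50% of probe sets and with a robust trend. Leaving out 1 array gave 22 to 30, 58 to 61 and 34 to 39 members called higher, 1 to 4, 2 and 0 to 1 called lower, and medians of 0.28 to 0.32, 0.75 to 0.81 and 0.40 to 0.44. Same-numbered arrays of different groups deviated weakly in opposite directions (correlations of −0.184 to −0.139). Deviations were taken from each group's own mean, so arrays with unlike numbers may deviate together, and whether any arrays share a batch was not tested. With the numbers as a replicate block, 22, 59 and 35 members were called higher and 9, 1 and 5 calls were lost. With shPC28, the assembly and rRNA modification genes called numbered 7 to 14 higher and 3 to 7 lower over the alternatives, and the transcription genes called lower 3 to 5, and with shPC25 the other subunits called higher numbered 0 to 4. The cause of these movements was not tested. Using every probe set of a member gave nothing further, since each had 1. The normalization between arrays is unknown, and 3 arrays a group limit the precision.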
